A study of Ovis aries and Mus musculus with 20 samples.

Results

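The 10 genes described here, Ucp1, Dio2, Elovl3, Cidea, Ppargc1a, Ppargc1b, Prdm16, Ebf2, Zic1 and Tmem26, are genes for heat production in brown and beige fat and genes that regulate or mark those cells. They were chosen by name, for what they are known to do and not for a measured value, from 20604 protein-coding genes on the 19 mouse autosomes. Earlier results of these data were known when they were chosen. The data are Hi-C maps, which record how often stretches of DNA touch in the nucleus, of inguinal white adipose tissue (iWAT), the fat under the skin of the groin. The maps came from 2 pools of adult female Kunming mice aged 32 weeks, which are the 2 replicates of 1 group. The labels name no cold exposure, drug or other treatment, and animals were fasted before sampling. With 1 group, the comparisons run between genes and not between conditions.

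The study made these maps, beside Hi-C and RNA-seq of sheep visceral fat not used here, to set 3D genome organization of adipose tissues of several mammals side by side. Nuclei were taken from the floating layer that holds adipocytes, after fixation of the tissue, and each pool mixed several animals. Each value is therefore an average over animals and over all nuclei of that layer, and a small share of beige cells in one state cannot be told apart from a moderate state shared by all cells. No mouse RNA was analysed here, so nothing below is an expression level, and the makeup of the tissue could not be checked by marker transcripts.

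Brown and beige adipocytes burn fat for heat. The sympathetic signal noradrenaline acts on β-adrenergic receptors, raises cAMP and activates protein kinase A, which frees fatty acids and switches on thermogenic genes, among them the uncoupling protein that lets protons leak across the inner mitochondrial membrane. The inguinal depot of mice holds mostly white adipocytes, and beige cells arise in it on cold or adrenergic stimulation.

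Chromosomes are folded at 2 scales that were measured here. On the large scale, chromatin separates into an A compartment, generally rich in genes and open, and a B compartment, generally poor in genes and compact. The A-B index gives, for each bin of 20 kb, how much more the bin touched A regions than B regions of its chromosome, relative to the contacts that its distances would give. It has no unit, values above 0 were read as A and values below 0 as B. On the smaller scale, topologically associating domains (TADs) are stretches that contact themselves more than their surroundings. The authors called TADs once, on the merged map of both pools, so their edges carry no replicate error.

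Sequences just before the start are printed first for Dio2, Ppargc1a and Zic1, the 3 genes that lay in B. All are from GRCm39, with starts of the canonical transcripts of GENCODE M39, and are written 5′ to 3′ on the strand of the gene. Dio2 and Ppargc1a were both in B, and each holds 1 copy of the palindrome TGACGTCA, the cAMP response element (CRE), which is the class of site bound by CREB, a factor that protein kinase A activates. The CRE is in capitals in the 30 bases around it, at chr12:90705889-90705918 for Dio2 and chr5:51711329-51711358 for Ppargc1a, both on the minus strand.
Dio2: ctctttctcaaTGACGTCAagatctttagc
Ppargc1a: ctgccttggagTGACGTCAggagtttgtgc
The CRE lay 81 to 88 bases before the start of Dio2 and 76 to 83 bases before that of Ppargc1a. The Dio2 site was outside the exons of protein-coding genes, within an intron of the long noncoding gene Gm26512, and the 30 bases at Ppargc1a were inside exons of other, nonsense-mediated decay transcripts of Ppargc1a.

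The whole 250 bases before Dio2, at chr12:90705820-90706069 on the minus strand, also hold a TATA box, TATAAA, in capitals with the CRE.
Dio2: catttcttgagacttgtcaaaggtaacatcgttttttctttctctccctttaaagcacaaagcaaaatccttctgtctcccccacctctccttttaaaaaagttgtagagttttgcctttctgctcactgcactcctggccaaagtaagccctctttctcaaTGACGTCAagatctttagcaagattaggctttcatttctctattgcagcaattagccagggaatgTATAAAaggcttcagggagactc
Zic1 was the gene deepest in B, and its 30 bases at chr9:91247956-91247985 on the minus strand, which overlap a first exon of Zic4 transcripts read from the opposite strand, show 1 of its 2 GC boxes, GGGCGG, in capitals.
Zic1: cgcggcggccccGGGCGGggtgtgtggggg

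The CRE, the TATA box, the GC box and the CCAAT box (CCAAT) were the only 4 motifs searched, on both strands of the 250 bases before the start, and they were chosen after the A-B values had been seen. The CRE was found before 339 of 20604 starts, which is 1.65%, and among the 10 genes before Dio2 and Ppargc1a. The TATA box was found before 12.0% of starts and among the 10 genes before Dio2. The GC box was found before 36.8% of starts and before 7 of the 10 genes, and the CCAAT box before 36.1% of starts and before Zic1, Ebf2 and Elovl3. A match is a stretch of letters and not evidence that a factor was bound there.

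The starts of 7 of the 10 genes were in A in both pools, and 3 were in B in both pools. Over all genes, 75.6% were in A in both pools and 21.7% were in B in both pools, so the counts of the 10 genes were near the background and are no result about them as a group. The genes in B were Ppargc1a, Dio2 and Zic1. No gene of the 10 had opposite signs in the pools, and every bin of all 10 gene bodies had the sign of its start in both pools. The median over the 10 genes of the mean index was 2.13, and over all genes 3.26.

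**Figure D1:**
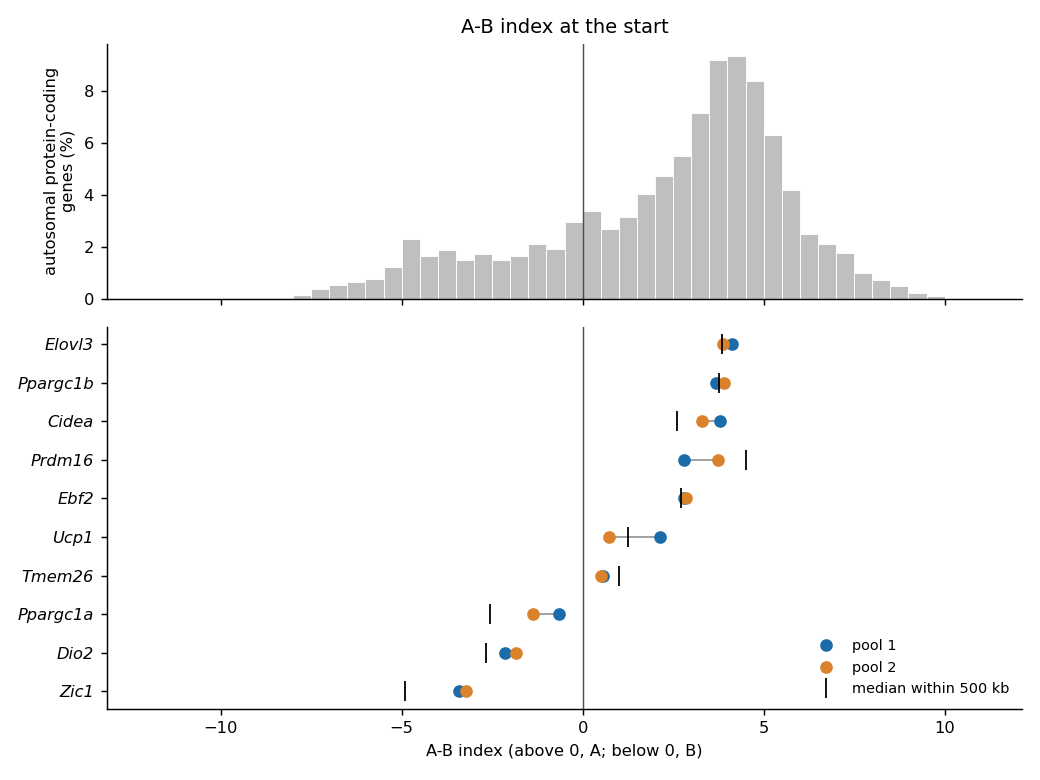
The upper panel plots the percent of autosomal protein-coding genes (y axis) by the mean A-B index at their start (x axis, no unit) in steps of 0.5. The lower panel plots the index of the 10 genes on the same axis in pool 1 and pool 2 (points) and the mean over pools of the median of the bins within 500 kb (vertical strokes); Ppargc1a, Dio2 and Zic1 are below 0 in both pools and to the right of their strokes.

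The pools resembled each other closely, with Pearson's r of 0.988 across 123133 bins, which are neighbours on chromosomes and so not independent. At gene starts pool 1 was higher by a median of 0.347, and the SD of the difference was 0.647. The index was given without the number of contacts behind each bin, so the depth behind a value is unknown and the spread between the pools is the only error. Percentiles below are the percent of the 20604 gene starts with a lower mean index, and because starts share bins, these are values of 17240 bins.

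By mean index the order was Elovl3, Ppargc1b, Cidea, Prdm16, Ebf2, Ucp1, Tmem26, Ppargc1a, Dio2 and Zic1. Over the first 5 genes of this order, the pool values of each gene overlapped those of the next, so their order is not settled by the pools. From Ebf2 on, no gene's pool values overlapped those of the next. Both pools gave the same order for Ebf2, Ucp1, Tmem26, Ppargc1a, Dio2 and Zic1, and the first 5 genes stood above the other 5. Within pool 2, however, Ucp1 at 0.739 and Tmem26 at 0.517 were closer than the SD of 0.647. So were Ppargc1a at -1.37 and Dio2 at -1.84, and the order within these pairs is not resolved. Of the first 5, Ebf2 was still below the median of 3.26 over all genes.

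Ucp1 (ENSMUSG00000031710), at chr8:84016647-84025085 on the plus strand, encodes uncoupling protein 1, the carrier that makes heat by proton leak. Its start had an index of 2.13 in pool 1 and 0.739 in pool 2, a mean of 1.43 ± 0.980 (SD, n = 2). Both values were in A, at percentile 31.7, but the difference of 1.39 between the pools was larger than at 94.5% of gene starts. Among the 10 genes it was the one on which the pools differed most. Pool 1 was also higher by a median of 0.347 over all gene starts, so Ucp1 differed in the direction of that offset. Prdm16, at -0.940 for pool 1 minus pool 2, differed against it.
The second bin of the gene had 1.84 in pool 1 and 1.58 in pool 2, so the pools were closer over the body than at the start.
Ucp1 lay on a slope. Over the bins 100 to 500 kb away, the side of lower coordinates averaged 0.586 in pool 1 and 0.215 in pool 2, and the side of higher coordinates 3.54 and 3.09. The nearest bin in B in both pools was 277 kb away, on the low side. Against the median of its surroundings, meaning the other bins within 500 kb, the start differed by 0.642 in pool 1 and by -0.295 in pool 2, so its direction was not settled. Of the nearest protein-coding starts, Tbc1d9 had a mean index of 1.47 ± 0.663 and Elmod2, 42.2 kb away, 2.58 ± 0.450 (SD, n = 2).

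Dio2 (ENSMUSG00000007682), at chr12:90691322-90705819 on the minus strand, encodes type 2 deiodinase, which makes active thyroid hormone inside the cell. Its start had -2.15 in pool 1 and -1.84 in pool 2, a mean of -1.99 ± 0.217 (SD, n = 2) at percentile 14.3. Both bins of the gene and all 51 bins of the window were in B in both pools. The start was still higher than the median of its surroundings, by 0.609 in pool 1 and by 0.724 in pool 2. It was not the peak of the window, since 16 bins had a higher mean index. The B chromatin deepened in the direction of transcription, with averages 100 to 500 kb away of -4.37 and -4.16 on the side of the gene body, against -1.53 and -1.61 on the other side. The nearest bin in A in both pools was 634 kb away. There was no other protein-coding start within 500 kb, the nearest being Cep128 at 645 kb, with an index of 1.45 ± 0.218, and Nrxn3 at 1945 kb, with -3.62 ± 0.0899 (SD, n = 2).

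Elovl3 (ENSMUSG00000038754), at chr19:46119917-46124133 on the plus strand, encodes an enzyme that lengthens saturated fatty acids and rises in cold-exposed brown fat. Its start had 4.12 in pool 1 and 3.87 in pool 2, a mean of 3.99 ± 0.175 (SD, n = 2) at percentile 62.6, the highest of the 10 genes. The surroundings were as high, and the start was above their median by 0.0616 in pool 1 and 0.216 in pool 2. All 51 bins of the window were in A in both pools, and 24 other starts lay within 500 kb. The start of Pitx3 lies in the same bin and so has the same values, and that of Nolc1, 56.1 kb away, had 3.99 ± 0.185 (SD, n = 2). At Elovl3 the index therefore says nothing about the gene that it does not say about these neighbours.

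Cidea (ENSMUSG00000024526), at chr18:67476317-67501224 on the plus strand, encodes a protein of lipid droplets that is abundant in brown and beige fat. Its start had 3.81 in pool 1 and 3.29 in pool 2, a mean of 3.55 ± 0.365 (SD, n = 2) at percentile 54.4. It stood on the A side of a change of compartment. The bins 100 to 500 kb away averaged -1.91 and -1.73 on the side before the gene and 3.46 and 3.02 on the side after it. The nearest bin in B in both pools was 217 kb away, and of the 51 bins of the window 35 were in A and 15 in B in both pools. The start was above the median of this mixed window by 1.02 in pool 1 and 0.843 in pool 2. Its neighbours Impa2, with 3.80 ± 0.292, and Tubb6, with 3.69 ± 0.223 (SD, n = 2), were as high as Cidea.

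**Figure D2:**
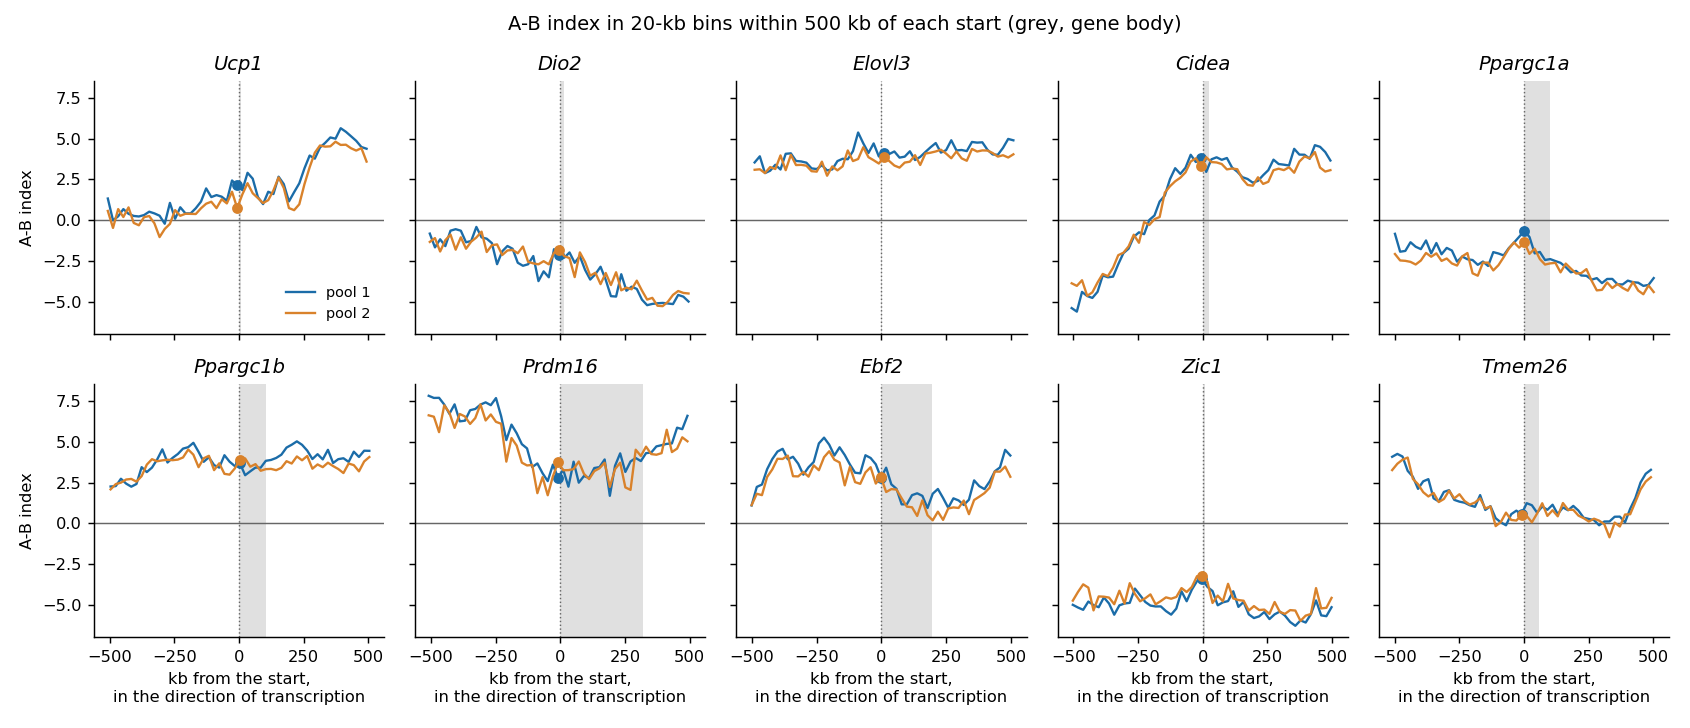
Each panel plots the A-B index (y axis, no unit) of the 51 bins of 20 kb around 1 gene by distance from its start in kb (x axis), turned so that transcription runs to the right. Lines are the 2 pools, points mark the start bin and grey marks the gene body; Ppargc1a and Zic1 form small peaks inside B, Dio2 lies on a slope inside B, and the windows of Ppargc1b, Prdm16, Ebf2 and Elovl3 stay above 0.

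Ppargc1a (ENSMUSG00000029167), at chr5:51611592-51725068 on the minus strand, encodes PGC-1α, the coactivator that adrenergic signals induce and that drives mitochondrial genes and Ucp1. Its start had -0.649 in pool 1 and -1.37 in pool 2, a mean of -1.01 ± 0.512 (SD, n = 2) at percentile 18.0. All 7 bins of the gene and all 51 bins of the window were in B in both pools. Inside this B region the start was a peak. It exceeded the median of its surroundings by 1.80 in pool 1, where no bin of the window was higher, and by 1.32 in pool 2, where 1 bin was higher. The last bin of the gene had -2.39 in pool 1 and -2.65 in pool 2, so the index fell along the gene and the mean over the body was -1.87. The nearest bin in A in both pools was 569 kb from the start. No other protein-coding start lay within 500 kb. The nearest, Dhx15, was 637 kb away with 2.54 ± 0.972, and Adgra3 was 1495 kb away with -0.192 ± 0.311 (SD, n = 2).

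Ppargc1b (ENSMUSG00000033871), at chr18:61431195-61533735 on the minus strand, encodes PGC-1β, the related coactivator of mitochondrial genes. Its start had 3.68 in pool 1 and 3.89 in pool 2, a mean of 3.79 ± 0.154 (SD, n = 2) at percentile 58.8. All 6 bins of its body and all 51 bins of its window were in A in both pools, and 15 other starts lay within 500 kb. The difference from the surroundings changed sign between pools, -0.252 in pool 1 and 0.308 in pool 2. The paired coactivators were thus on opposite sides of 0, and the values of Ppargc1b were higher than those of Ppargc1a by 4.33 in pool 1 and 5.27 in pool 2. The neighbours of Ppargc1b were alike, Pde6a at 4.23 ± 0.591 and Arhgef37 at 3.88 ± 0.151 (SD, n = 2).

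Prdm16 (ENSMUSG00000039410), at chr4:154400581-154721625 on the minus strand, encodes the zinc-finger regulator that holds brown and beige identity. Its start had 2.79 in pool 1 and 3.73 in pool 2, a mean of 3.26 ± 0.665 (SD, n = 2) at percentile 50.0. All 17 bins of this long gene were in A in both pools. It nevertheless lay below the median of its surroundings, with differences of -1.96 in pool 1 and -0.544 in pool 2. The start was not the lowest bin of the window, as 39 of the 51 bins had a higher mean index. The mean of these differences from the surroundings was lower than at all but 5.55% of gene starts. The bins on the side before the start averaged 6.51 and 5.79, the highest flank of the 10 genes. Arhgef16, on the other side of the gene, had 4.50 ± 0.280, and Actrt2, 30.7 kb before the start, had 3.24 ± 0.506 (SD, n = 2), close to Prdm16 itself.

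Ebf2 (ENSMUSG00000022053), at chr14:67470736-67668394 on the plus strand, encodes a transcription factor that marks and programmes brown and beige precursors. Its start had 2.80 in pool 1 and 2.84 in pool 2, a mean of 2.82 ± 0.0326 (SD, n = 2) at percentile 44.2, and the difference between pools was smaller than at most gene starts. The index fell along the gene. All 11 bins were in A in both pools, but the last had 1.82 in pool 1 and 0.187 in pool 2, and the mean over the body was 1.64. Against the median of its surroundings the start differed by -0.289 in pool 1 and by 0.467 in pool 2, so that direction was not settled either. The nearest starts, Ppp2r2a with 4.20 ± 0.655 and Cdca2 with 3.99 ± 0.725 (SD, n = 2), were higher than Ebf2.

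Zic1 (ENSMUSG00000032368), at chr9:91240111-91247863 on the minus strand, encodes a zinc-finger factor that marks classical brown fat and is usually absent from beige cells. Its start had -3.41 in pool 1 and -3.23 in pool 2, a mean of -3.32 ± 0.129 (SD, n = 2) at percentile 10.1, the lowest of the 10 genes. All 51 bins of the window were in B in both pools. The start bin was the highest of the 51 in both pools, 1.68 above the median of its surroundings in pool 1 and 1.49 in pool 2. The start of Zic4, which encodes a related factor, lies 2.24 kb away in the same bin, so the peak cannot be assigned to either gene. The next start, Tbc1d2b, was 1095 kb away with 0.320 ± 0.0926 (SD, n = 2).

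Tmem26 (ENSMUSG00000060044), at chr10:68559476-68618480 on the plus strand, encodes a membrane protein used as a surface marker of beige cells. Its start had 0.568 in pool 1 and 0.517 in pool 2, a mean of 0.542 ± 0.0365 (SD, n = 2) at percentile 26.6. Of the genes in A it was the closest to 0. It lay below the median of its surroundings, with differences of -0.493 in pool 1 and -0.458 in pool 2. All 4 bins of its body were in A in both pools, though the lowest had 0.0640 in pool 2. Of its neighbours, Cabcoco1 had 1.15 ± 0.187 and Rhobtb1 3.06 ± 0.321 (SD, n = 2).

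In all, 5 of the 10 starts, those of Dio2, Elovl3, Cidea, Ppargc1a and Zic1, were above the median of their surroundings in both pools, against 57.8% of all genes, which is again no excess. Elovl3, the nearest of these to its surroundings, was no longer above them in both pools with the mean of 5 bins or the most upstream start. Of the 3 genes in B all 3 were above their surroundings, while 28.7% of the 4468 genes in B were. This background was added after the values of the 3 genes had been seen, and with 3 genes it stays a description. It was taken over all genes in B and not over those with as few neighbours as these 3. Among the genes in B, Zic1 exceeded its surroundings by more than 94.5% did, Ppargc1a by more than 94.3% and Dio2 by more than 85.1%. A gene in B lay a median of -0.235 from the median of its surroundings.

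Genes with few neighbours were more often in B over the whole genome, and the 3 genes in B had few. Of the 271 genes with no other protein-coding start within 500 kb, 74.5% were in B in both pools, and Ppargc1a and Dio2 belong to them. Within this class they were not low, since both means were above its median of -2.71. Of the 1921 genes with 1 to 4 such starts, 38.4% were in B, and Zic1 with 1 and Tmem26 with 3 belong to them. Zic1 was below the 25th percentile of that class, which was -1.60. Its only other start within 500 kb was that of Zic4, in the same bin. Set against the genes with no other start, Zic1 was above their 25th percentile of -4.64. Of the 6020 genes with 10 to 19 such starts, 16.2% were in B, and Ucp1, Ppargc1b, Prdm16 and Cidea, all in A, belong to them. The relation was not a steady one, as 20.7% of the 8559 genes with 20 or more such starts were in B, though Elovl3, with 24, was in A. The mean of Ucp1, 1.43, was below the median of 3.49 of its class but above its 25th percentile of 1.31. The value in pool 2 alone, 0.739, was below that percentile. The authors used the gene density of each chromosome to decide which compartment was called A, so the direction of this relation is partly set by the method. These classes were drawn after the values had been seen.

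**Figure D3:**
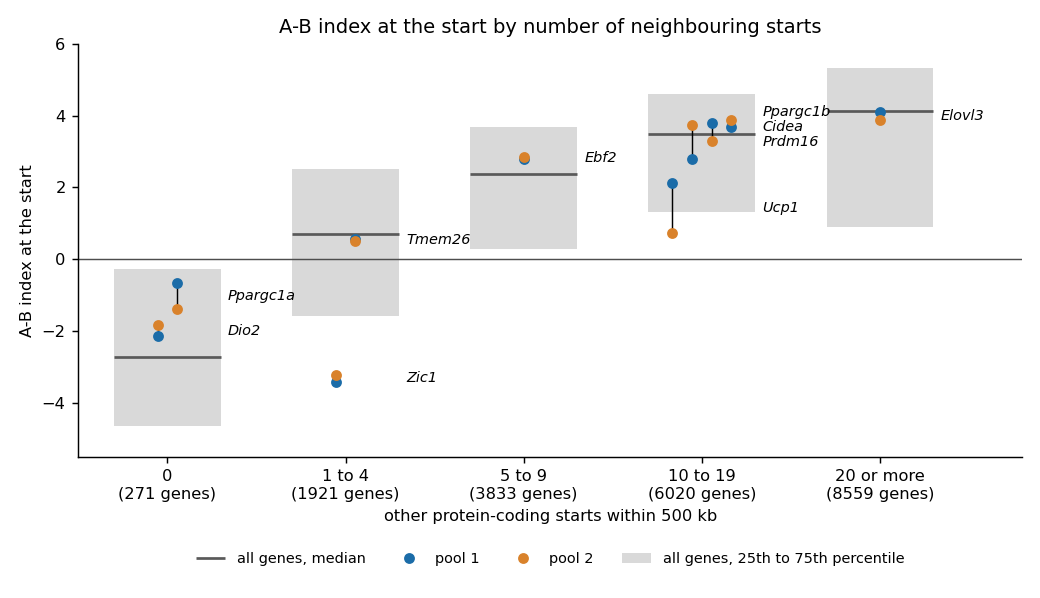
The A-B index at the start (y axis, no unit) is plotted by the number of other protein-coding starts within 500 kb (x axis, 5 classes with their number of genes). Grey bars are the 25th to 75th percentile and dark lines the median of all genes of a class. Points are the 10 genes in the 2 pools. Zic1, whose 1 neighbour is Zic4 in the same bin, is below the grey bar of its class. Ppargc1a and Dio2 are above the median of theirs.

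The bases of the start bins differed between genes too. The GC content was 40.3% at Ppargc1a, 40.8% at Dio2 and 41.6% at Tmem26, below the median of 45.0% over all start bins, and 45.9% at Zic1, above it. The enzyme MboI, used to cut the chromatin, cuts at GATC, of which the start bins of the 10 genes held 35 to 55 against a median of 49, with the 35 at Dio2. The part of these in the index was not tested.
The 250 bases before the start held 3 CpG at Ppargc1a and 2 at Dio2, against a median of 8, and 28 at Prdm16 and 27 at Zic1. Of the 3386 genes with 20 or more CpG there, 92.8% were in A in both pools, so Zic1 was an exception in B with a promoter of this kind. Of the 7343 genes with up to 4 CpG, 50.3% were in A. Of the 339 genes with a CRE before the start, 85.0% were in A and 12.7% in B, against 75.6% and 21.7% of all genes. The CRE itself holds a CpG, and these shares were not adjusted for CpG. A relation between the CRE and the compartment was therefore not tested. There were 8 such genes with no other start within 500 kb, and 7 of them were in B, Ppargc1a and Dio2 among them. As 74.5% of all 271 genes without such a neighbour were in B, this set, formed after the values were seen, is no result about the CRE.

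The 3 genes in B also lay in long TADs with few genes. The TAD of Ppargc1a spanned 1740 kb, that of Dio2 1940 kb and that of Zic1 1980 kb, against a median of 680 kb over all gene starts in a TAD. Genes in B had longer TADs in general, with a median of 1000 kb against 640 kb for genes in A, and within the genes in B these 3 TADs were longer than 72.4%, 77.2% and 77.4%. Genes with no other protein-coding start within 500 kb had a median of 2000 kb, so the TADs of Ppargc1a and Dio2 were not long for their class. For genes with 1 to 4 such starts, Zic1 among them, the median was 720 kb. Zic1 was in this class only through Zic4, whose start is in the same bin, and would otherwise fall in the class of 2000 kb. No other protein-coding start shared the TAD of Ppargc1a or that of Dio2. Zic1 shared its TAD with Zic4, Tbc1d2b and Adamts7, and the last, with 0.382 ± 0.523 (SD, n = 2), was near the far end and in A like Tbc1d2b.

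The TADs of the genes in A were shorter, from 360 kb at Ppargc1b to 1000 kb at Tmem26. Ebf2 was the sole protein-coding start of a TAD of 480 kb, and Prdm16 shared its TAD of 500 kb with Actrt2. Ppargc1b shared its TAD with Hmgxb3, Slc26a2 and Pde6a, whose means were 4.23 to 4.56. Tmem26 shared its TAD with Cabcoco1, Rhobtb1 and Cdk1, all in A. The TADs of Ucp1, Elovl3 and Cidea held 8, 12 and 13 other starts.

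Near means here that a start lay at most 100 kb from the nearest TAD edge, and 2 of the 10 starts did, against 38.5% of all genes. Ebf2 started 12.0 kb inside an edge, with its body running away from that edge, and Elovl3 started 60.3 kb from one. At Prdm16 the far end of the gene was 0.580 kb from the edge, while the start was 178 kb from the opposite one. Edges fall on the limits of bins, so a distance shorter than a bin is not resolved. This holds for the Ebf2 start and the far end of Prdm16. Whether these edges lay inside or outside the genes is therefore not known. The starts farthest from an edge were those in B: 529 kb at Ppargc1a, 634 kb at Dio2 and 752 kb at Zic1. In TADs of this length a start can be far from an edge, and the distance was not adjusted for it.

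An edge of the TAD lay at most 40 kb from an end of the run of bins of 1 sign around the start for 3 of the 10 genes, against 26.8% of all genes. This count was near the background and is no result about the 10 genes. The 3 genes were Ppargc1a, Dio2 and Cidea, a description added after the edges at Ppargc1a and Dio2 had been seen. At Ppargc1a the TAD, chr5:50500001-52240000, ended 20.0 kb before the B run of 6220 kb did. At Dio2 the TAD, chr12:89400001-91340000, ended 20.0 kb after the B run of 2920 kb did. Both coincidences lay upstream of the start, on the side from which transcription runs away. At Cidea the edge was likewise upstream, 40.0 kb from the change to B. The share of all genes with such an edge upstream was not computed, so the side is a description only.

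**Figure D4:**
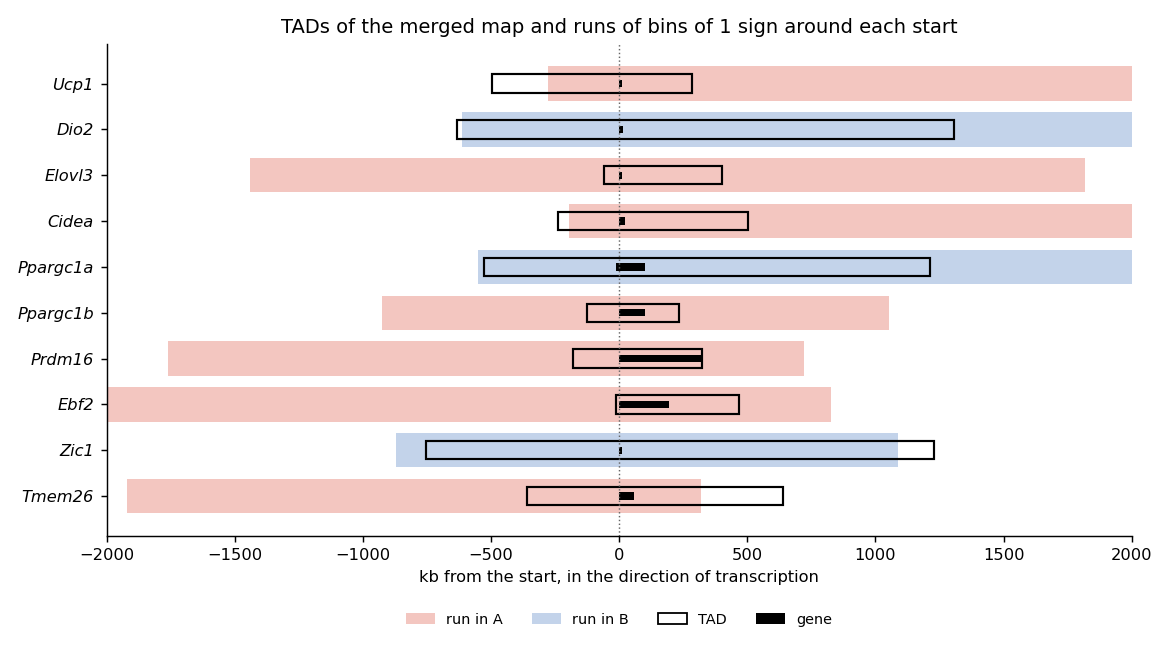
For each of the 10 genes (y axis) the bar in colour is the run of 20-kb bins with 1 sign of the mean index, the open box is the TAD of the merged map and the black bar is the gene, by distance from the start in kb (x axis, cut at 2000 kb on each side, turned so that transcription runs to the right). The boxes of Ppargc1a, Dio2 and Zic1 are the longest, and those of Ppargc1a and Dio2 end beside the left end of the B run.

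The other genes of the thermogenic pathway were looked up from 5 lists, chosen for function with earlier results of these data known. Of the 81 listed genes on autosomes 74 were in A in both pools and 7 in B, with a median of 3.93, against 75.6% in A and a median of 3.26 over all genes. The difference was not tested. All 12 genes of β-adrenergic input and cAMP, which act upstream of the CRE, were in A, where 75.6% of all genes were. Adcy3, an adenylyl cyclase, had 4.67 ± 0.518 and Prkaca, a catalytic subunit of protein kinase A, 4.53 ± 0.184, while Pde3b, a phosphodiesterase, had 1.10 ± 0.243 and Gnas, the stimulatory G protein, 0.456 ± 0.545 (SD, n = 2).
The median of these 12 genes, 3.18, was close to the 3.26 of all genes, and their lowest, Gnas, was near 0.

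Of 20 transcriptional regulators 18 were in A, against the same 75.6% of all genes. The highest were Ehmt1, a methyltransferase that works with PRDM16, with 8.24 ± 1.56, and Rxra, the partner of nuclear receptors, with 7.40 ± 0.394. The 2 in B were Thrb, a receptor of the hormone that DIO2 makes, with -0.682 ± 0.138, and Esrrg, an orphan nuclear receptor, with -0.888 ± 0.224 (SD, n = 2).
Esrrg had 1 other start within 500 kb, and Thrb had 4.

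Of 23 brown and beige marker genes 22 were in A, again against 75.6% of all genes. Cox8b and Cox7a1, subunits of cytochrome oxidase, were at the top with 7.55 ± 1.29 and 7.19 ± 0.423. The lowest were P2rx5, a purine receptor, with 0.634 ± 0.594, and Ear2, the only one in B, with -5.54 ± 0.498 (SD, n = 2).
Ear2 belongs to a family of similar genes, and how well reads could be placed at its bin was not tested.

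Of 12 genes of heat production without UCP1 10 were in A, a share near the 75.6% of all genes. Atp2a1 and Ryr1, of calcium cycling, had 7.84 ± 0.313 and 6.22 ± 0.107, and Ryr2 and Sln, of the same cycle, were in B with -2.13 ± 0.0816 and -2.74 ± 0.846 (SD, n = 2). Of 14 secreted factors 12 were in A, also set against 75.6%. Fgf21 had 8.71 ± 0.490 and Gdf15 5.88 ± 1.00, and Mstn and Bmp4 were in B with -0.349 ± 0.211 and -0.429 ± 0.0904 (SD, n = 2).
Members of each list but that of adrenergic input were therefore on both sides of 0.

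As a check of the tissue, all 10 white adipocyte genes were in A in both pools, from Adipoq with 2.73 to Lipe with 7.96 and with a median of 4.15. Of 12 genes of tissues other than fat 10 were also in A, with a median of 2.21. A value in A therefore does not mark a gene as one of fat, and no cell type can be named from the index alone. The median of the 10 thermogenic genes, 2.13, was near that of the genes of other tissues.

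**Figure D5:**
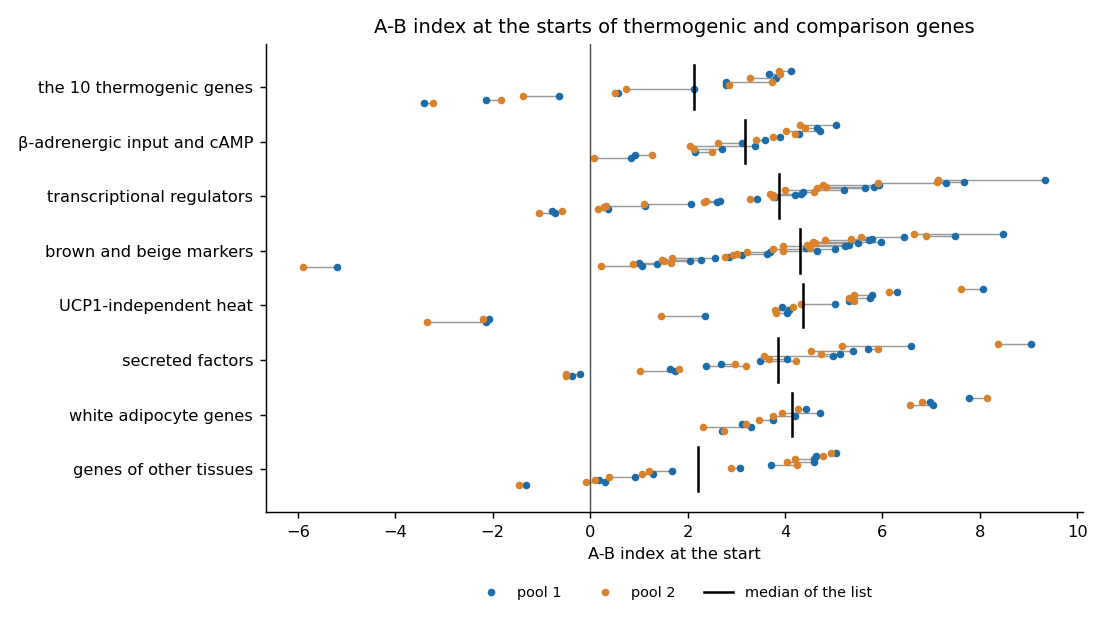
The A-B index at the start (x axis, no unit) is plotted in pool 1 and pool 2 (points, joined for each gene) for the 10 thermogenic genes, the 5 lists of related genes and the 2 lists used to check the tissue (y axis), with the median of each list as a black stroke. The β-adrenergic and white adipocyte genes are all above 0, while 3 of the 10 thermogenic genes are below 0.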

How the data were processed

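The files of mouse iWAT used were an A-B index for each pool and 20-kb bin, deposited by the authors as a score above or below 0, and a list of TAD positions called on the merged map. Per the paper, reads were aligned to GRCm39 with BWA and filtered in Juicer, contacts were balanced and divided by those expected at each distance, and TAD edges were called from insulation scores. The last bin of each of the 19 autosomes was checked against the length in GRCm39.

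Each gene took the bin of its canonical start in GENCODE M39. Counts required both pools. Surroundings are the other bins within 500 kb. No statistical test was run, since there was 1 group of 2 pools. The scripts were tested on simulated data. Python 3.11.15, numpy 2.4.6, pandas 2.3.3 and matplotlib 3.10.9 were used.

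The 10 genes and all lists were chosen with earlier results of these data known. Named were the 10 genes, the nearest start on each side, TAD mates where there were at most 5, and the 2 highest and 2 lowest of each list. Sequences, motifs, CpG and density classes and run ends were added after the values were seen. Of the listed genes Cited1, Gk and Slc6a8 are not on autosomes and were left out. Sequences are printed for Dio2, Ppargc1a and Zic1, and those of other promoters are not reported here.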

Additional observations from a re-analysis of the deposited data

How the results depend on the processing

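The count of 7 genes in A in both pools was kept under each alternative that could change it. These were the mean of 5 bins, and indices minus the library or chromosome median. The most upstream start, the gene body and either pool alone could give no other count. The most upstream start lies in a bin of the gene body, and all signs there matched those of the starts. Of the 50 values of single genes under these alternatives other than single pools, none changed sign, and 21 moved by more than the SD between pools. Those over the gene body and at the most upstream start are among the 50 and could not change sign. Division by the SD of the chromosome and single pools could not change a sign here and are not counted. The number of genes above their surroundings ran from 4 to 6 over the planned settings with both pools, and was 6 or 7 in single pools. Elovl3 dropped out with the most upstream start or 5 bins, and Ppargc1a, Dio2, Cidea and Zic1 remained under each setting with both pools. Of the 10 starts, 1 was within 60 kb and 4 were within 200 kb of a TAD edge. The shares of all genes at these 2 distances were not computed, so these counts are no result about the 10 genes. The median distance over all gene starts was 142 kb. The share of all genes in A was 75.1% to 77.8%, and of 81 pathway genes 72 to 75 were in A. With 2 pools, differences under the SD of 0.647 between them at gene starts are not resolved, and nothing here shows whether the pattern is particular to fat. No paired analysis was possible because there was a single group.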
